A study of Homo sapiens with 6 samples.

Results

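The genes examined here are 10 feedback and output genes of the ERK branch of MAPK signalling: the dual-specificity phosphatases DUSP4, DUSP5 and DUSP6, the sprouty genes SPRY2 and SPRY4, the sprouty-related genes SPRED1 and SPRED2, the ETS transcription factors ETV4 and ETV5, and PHLDA1. They were chosen by name, as a read-out of ERK pathway output, with earlier results of these data known. All 10 were found among the 29185 genes of the table. The 6 RNA-seq libraries came from SKOV3, a long-established line of human ovarian cancer cells, with 3 libraries of control cells (sh-NC) and 3 of cells in which the transcription factor KLF5 was silenced (sh-KLF5). The sh-KLF5 cells were a stable line made with a pLKO vector, the labels name no drug treatment for either group, and poly(A) RNA was sequenced. The sample labels call the control genotype WT and the other genotype KLF5 knockdown. The study asked what lies downstream of KLF5 in resistance to PARP inhibitors. The construct is not named for these libraries, and nothing in the sources states that the libraries of a group came from separate cultures, so that the p-values measure only the spread between these samples, which may be technical.

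When growth factor receptors activate RAS, the kinases RAF, MEK and ERK are switched on in turn, and ERK then induces transcription of its own brakes. DUSP phosphatases remove the activating phosphates from ERK and related kinases, while sprouty and SPRED proteins act further up, at the level of receptors, RAS and RAF. ETV4 and ETV5 carry the transcriptional output of the pathway, and PHLDA1 is an immediate-early gene that growth factors induce. Because the transcripts of such genes follow ERK activity in many tumour cells, they are often read together as an index of pathway output.

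Library totals were close, from 15852319 to 17543896 reads in sh-NC and from 16009859 to 16871350 reads in sh-KLF5, and every one of the 10 genes passed the filter on low counts, as did 15803 genes in all. KLF5 itself stood at 4371, 4425 and 4494 normalized counts (reads divided by 1 size factor per library) in sh-NC and at 1745, 1439.9 and 1436 in sh-KLF5, which left 34.8% of the control level (log2 fold change -1.53, limma, adjusted p = 2.47e-07). Of the markers of ovarian carcinoma cells, KRT7 and KRT8 were abundant and PAX8 lay between 249 and 399.8 normalized counts, whereas KRT19 and CLDN3 were near 0 and WT1 and SOX17 had no row. Of the 10 such markers tested, 6 were lower in sh-KLF5 by adjusted p (limma), beside 6.85% of all genes tested, and 4 did not pass. The summed level of this list ranged from 54071 to 66105 normalized counts in sh-NC and from 28537 to 39021 in sh-KLF5. The leukocyte markers PTPRC, CD68 and LYZ and the endothelial marker CDH5 were at or near 0 in every library. Other markers of both lists were not absent. The leukocyte marker CD14 averaged 187 normalized counts in the controls and 305 after silencing. For the endothelial marker PECAM1 these means were 70.0 and 47.0. In bulk RNA, fewer cells of a type and less RNA per cell cannot be told apart.

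The feedback genes did not move as one block after KLF5 silencing. PHLDA1, SPRED1, ETV5 and SPRED2 rose, with 2.91, 2.10, 1.78 and 1.36 times the control mean. For DUSP4, SPRY4, ETV4, SPRY2, DUSP5 and DUSP6 the test across all genes was not passed, and the ratios of the means ran from 0.808 for DUSP6 to 1.35 for SPRY4. Counted by adjusted p under 0.05 at any fold (limma with Benjamini-Hochberg adjustment over all 15803 genes), 4 of 10 were higher and 0 lower, beside 6.04% of all genes tested that were higher and 6.85% that were lower (12.9% in either direction). With an added fold threshold of a log2 fold change above 1, PHLDA1 and SPRED1 remained, 2 of 10 beside 1.90% of all genes higher and 3.37% lower (5.28% in either direction). The libraries of the groups did not overlap for 5 of 10, all higher in sh-KLF5, beside 15.4% of all genes higher and 15.9% lower without overlap (31.3% in either direction). No gene of the 10 was called lower by edgeR, by DESeq2 or at an unadjusted p under 0.05 either (0 in each), and 6 of 10 were higher at an unadjusted p under 0.05, beside 12.8% of all genes higher and 13.4% lower by that rule. The fold change was above 0 for 9 of 10, beside 49.7% of all genes, and the median log2 fold change of the 10 was 0.38 beside -0.0023 for all genes tested. Because the 10 were chosen with earlier results of these data known, these shares are a description and not a test.

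**Figure D1:**
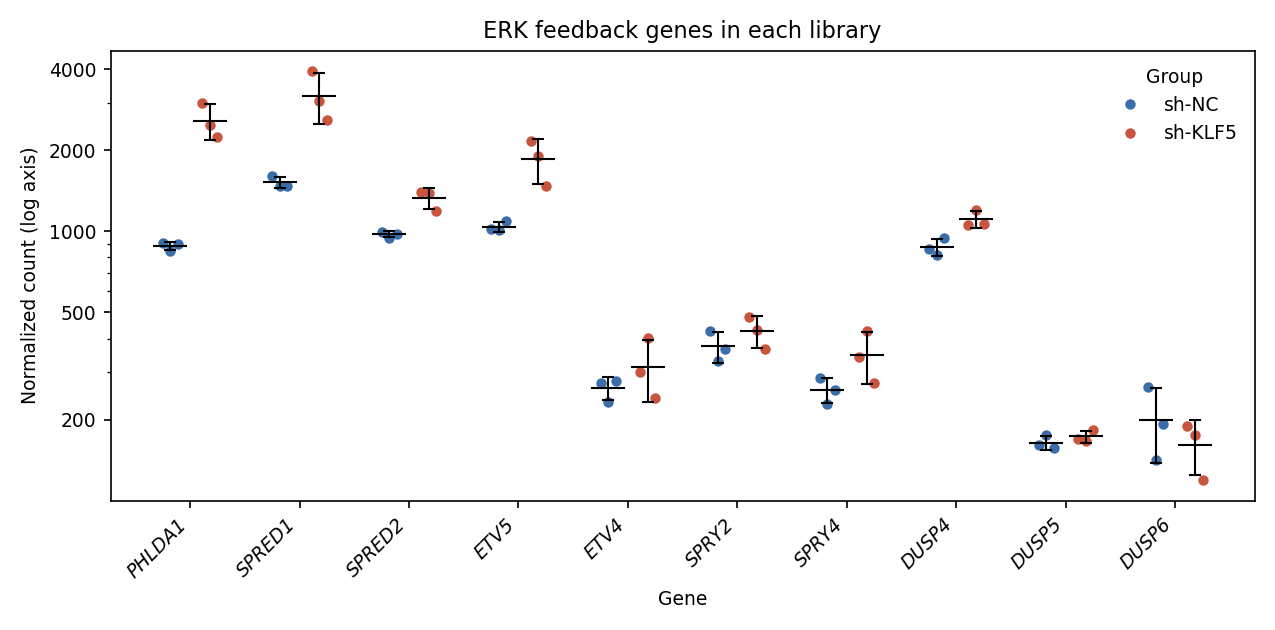
Normalized counts (log axis) of the 10 feedback genes in each of the 3 sh-NC and 3 sh-KLF5 libraries, where points are libraries, horizontal bars the group means and whiskers the SD. The groups lie apart for PHLDA1, SPRED1, SPRED2, ETV5 and DUSP4 and overlap for the other 5 genes. The sh-KLF5 points spread clearly more widely than the sh-NC points for PHLDA1, SPRED1, SPRED2, ETV5, ETV4 and SPRY4.

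PHLDA1 encodes a small protein with a pleckstrin homology-like domain that has been tied to cell death and to limiting receptor signalling. Its gene (ENSG00000139289) lies at chr12:76025447-76033932 on the minus strand of GRCh38. It was counted at 906, 848 and 901 normalized counts in sh-NC and at 2999, 2485 and 2244 in sh-KLF5. Every sh-KLF5 library was more than double the highest control, and no library of one group reached the range of the other. The means were 885 ± 31.9 and 2576 ± 385 (SD, n = 3), a log2 fold change of 1.53 (SE 0.12, 95% interval 1.27 to 1.79, limma, adjusted p = 4.61e-07). Among all 15803 genes this was rank 132 by rise and rank 56 by p. Leaving out any one library kept the log2 fold change between 1.42 and 1.62. Antisense genes with no row in the table cover 16.5% of its exonic bases, and the strand setting of the counting is not stated, so reads from them cannot be told apart.

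SPRED1 and SPRED2 encode membrane-bound inhibitors of RAS signalling, and SPRED1 is known for bringing the RAS inactivator neurofibromin to the membrane. SPRED1 (ENSG00000166068, chr15:38252326-38357249, plus strand) had 1609, 1477 and 1478 normalized counts in sh-NC and 3933, 3049.7 and 2594 in sh-KLF5. The sh-KLF5 libraries were all above the controls but differed among themselves, with library 1 far above library 3. The means were 1521 ± 75.8 and 3192 ± 681 (SD, n = 3), a log2 fold change of 1.05 (SE 0.14, 95% interval 0.75 to 1.34, limma, adjusted p = 7.48e-05). The size depended on sh-KLF5 library 1, without which the log2 fold change was 0.89 and no longer past the fold threshold, while its adjusted p (1.41e-06) stayed under 0.05.

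SPRED2 (ENSG00000198369, chr2:65310851-65432637, minus strand) had 996, 948 and 980.4 normalized counts in sh-NC and 1398, 1390.4 and 1189 in sh-KLF5. The groups did not overlap, and sh-KLF5 library 3 was again the lowest of its group. The rise was smaller than that of SPRED1, from 974.9 ± 24.6 to 1326 ± 119 (SD, n = 3), a log2 fold change of 0.44 (SE 0.12, 95% interval 0.20 to 0.68, limma, adjusted p = 0.0179). This call was lost in 4 of the 6 leave-one-out fits, where the adjusted p was 0.0696, 0.106 or 0.0629 without sh-NC library 1, 2 or 3 and 0.0661 without sh-KLF5 library 2.

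ETV5 and ETV4, with ETV1, form the PEA3 group of ETS factors, which bind DNA at a GGAA core. ETV5 (ENSG00000244405, chr3:186046308-186110318, minus strand) was counted at 1019.5, 1008 and 1091 in sh-NC and at 2172, 1911 and 1473 normalized counts in sh-KLF5. The lowest sh-KLF5 library, library 3, was still above the highest control. From 1039 ± 44.8 to 1852 ± 353 (SD, n = 3), the log2 fold change was 0.82 (SE 0.14, 95% interval 0.53 to 1.10, limma, adjusted p = 0.000622), and it lay between 0.69 and 0.97 when any one library was left out. DGKG shares 2.83% of the exonic bases of ETV5, and the antisense gene ETV5-AS1 had at most 14 reads in a library. ETV4 (ENSG00000175832, chr17:43527844-43579620, minus strand) had 275, 233 and 279 normalized counts in sh-NC and 301, 403 and 241 in sh-KLF5. Its groups overlapped, because sh-KLF5 library 3 lay among the controls. The log2 fold change was 0.24 (SE 0.18, 95% interval -0.14 to 0.61, limma, adjusted p = 0.441), an interval that covers both no change and a rise of the size seen for SPRED2. It was 0.042 without sh-KLF5 library 2, 0.15 without sh-NC library 2 and 0.41 without sh-KLF5 library 3. DHX8, on the opposite strand, shares 1.89% of its exonic bases.

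The sprouty genes encode cytoplasmic inhibitors that are recruited on receptor activation. SPRY4 (ENSG00000187678, chr5:142310427-142326455, minus strand) had 285, 229.6 and 258 normalized counts in sh-NC and 340.4, 427 and 275 in sh-KLF5. Of the sh-KLF5 libraries, 1 and 2 were above every control and library 3 was not. Its log2 fold change of 0.41 (SE 0.17, 95% interval 0.05 to 0.77) did not pass (limma, adjusted p = 0.128), and among the fits without 1 library it ran from 0.25 without sh-KLF5 library 2 (adjusted p = 0.400) to 0.57 without sh-KLF5 library 3, the only one of the 6 that passed (adjusted p = 0.0381). The antisense gene SPRY4-AS1 had 3 to 14 reads in each library. SPRY2 (ENSG00000136158, chr13:80335976-80340951, minus strand) had 428, 331 and 366 normalized counts in sh-NC and 482, 429.8 and 367 in sh-KLF5. Its groups overlapped, with a log2 fold change of 0.18 (SE 0.15, 95% interval -0.13 to 0.50, limma, adjusted p = 0.473), and 0.090 to 0.29 when any one library was left out, with the low end without sh-KLF5 library 1 and 0.097 without sh-NC library 2.

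The 3 phosphatases differ in where they meet ERK: DUSP6 is the cytoplasmic ERK phosphatase that is most often used as a marker of ERK output, whereas DUSP4 and DUSP5 act in the nucleus. DUSP4 (ENSG00000120875, chr8:29333064-29350668, minus strand) had 858, 819 and 946 normalized counts in sh-NC and 1059, 1199 and 1065 in sh-KLF5. Although the groups did not overlap, the log2 fold change of 0.34 (SE 0.12, 95% interval 0.09 to 0.59) missed the threshold (limma, adjusted p = 0.0689), and of the 6 fits without 1 library it passed only without sh-KLF5 library 1 (0.37, adjusted p = 0.0168), with adjusted p from 0.0857 to 0.285 in the other 5. DUSP5 (ENSG00000138166, chr10:110497838-110511544, plus strand) was nearly level, with 161, 175 and 157 normalized counts in sh-NC and 169, 167 and 183 in sh-KLF5. Its log2 fold change was 0.074 (SE 0.16, 95% interval -0.27 to 0.41, limma, adjusted p = 0.817), and 0.032 to 0.12 when any one library was left out. A processed pseudogene of DUSP5, DUSP5P1, had 41 to 77 reads in each library, and how reads that match both copies were counted is not stated.

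DUSP6 (ENSG00000139318, chr12:89347232-89353271, minus strand) had the lowest fold change of the 10 and the widest spread within sh-NC. It was counted at 265, 142 and 192 normalized counts in sh-NC and at 189.6, 176 and 119 in sh-KLF5. All sh-KLF5 libraries lay below the highest control and 2 of the 3 lay within the control range. From 199.8 ± 62.1 to 161.5 ± 37.2 (SD, n = 3), the log2 fold change was -0.29 (SE 0.23, 95% interval -0.77 to 0.20, limma, adjusted p = 0.465). It moved with single libraries, to -0.059 without sh-NC library 1, -0.084 without sh-KLF5 library 3 and -0.51 without sh-NC library 2, and passed in none of these fits. The coefficient of variation within sh-NC was 31.1%, against 2.53% for SPRED2 and 3.60% for PHLDA1, and the interval covers no change as well as values down to -0.77. The antisense gene AC024909.2 overlaps 40.5% of the exonic bases of DUSP6 and had at most 3 reads in any library. The strand setting of the counting is not stated, so whether reads in the shared bases were counted for DUSP6 is not known. Over the 6 libraries, the protein-coding genes with a mean of at least 100 normalized counts whose log2 values followed DUSP6 most closely, of 10148 compared, were NDUFB1 (Pearson r 0.979), EBAG9 (0.974), SERPINB1 (0.970), SMIM8 (0.969) and BCL2L11 (0.965), given as a description over libraries that also differ in group.

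Levels of different genes can be compared only per length. The lengths used hold all exonic bases, including those of DUSP6 and PHLDA1 that antisense genes share. In sh-NC the order of the mean normalized counts per kilobase of exon was SPRED2 (189), SPRED1 (184), ETV5 (179.2), SPRY2 (123), DUSP4 (120), PHLDA1 (110), ETV4 (72.7), DUSP5 (62.9), DUSP6 (43.1) and SPRY4 (39.2). The library ranges of neighbours overlapped within the first 3, among SPRY2, DUSP4 and PHLDA1 except that PHLDA1 stayed just below DUSP4, and between ETV4 and DUSP5 and between DUSP6 and SPRY4. In sh-KLF5 the order was SPRED1 (386), PHLDA1 (319.2), ETV5 (319.2), SPRED2 (257), DUSP4 (153), SPRY2 (140), ETV4 (87.2), DUSP5 (66.2), SPRY4 (52.9) and DUSP6 (34.9). Neighbours overlapped in their library ranges here except between SPRED2 and DUSP4, between SPRY2 and ETV4 and between SPRY4 and DUSP6. PHLDA1 thus moved from the sixth place to a level it shared with ETV5, and SPRY4 and DUSP6 changed places with library ranges of 41.8 to 65.0 and 25.8 to 40.9 per kilobase.

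**Figure D2:**
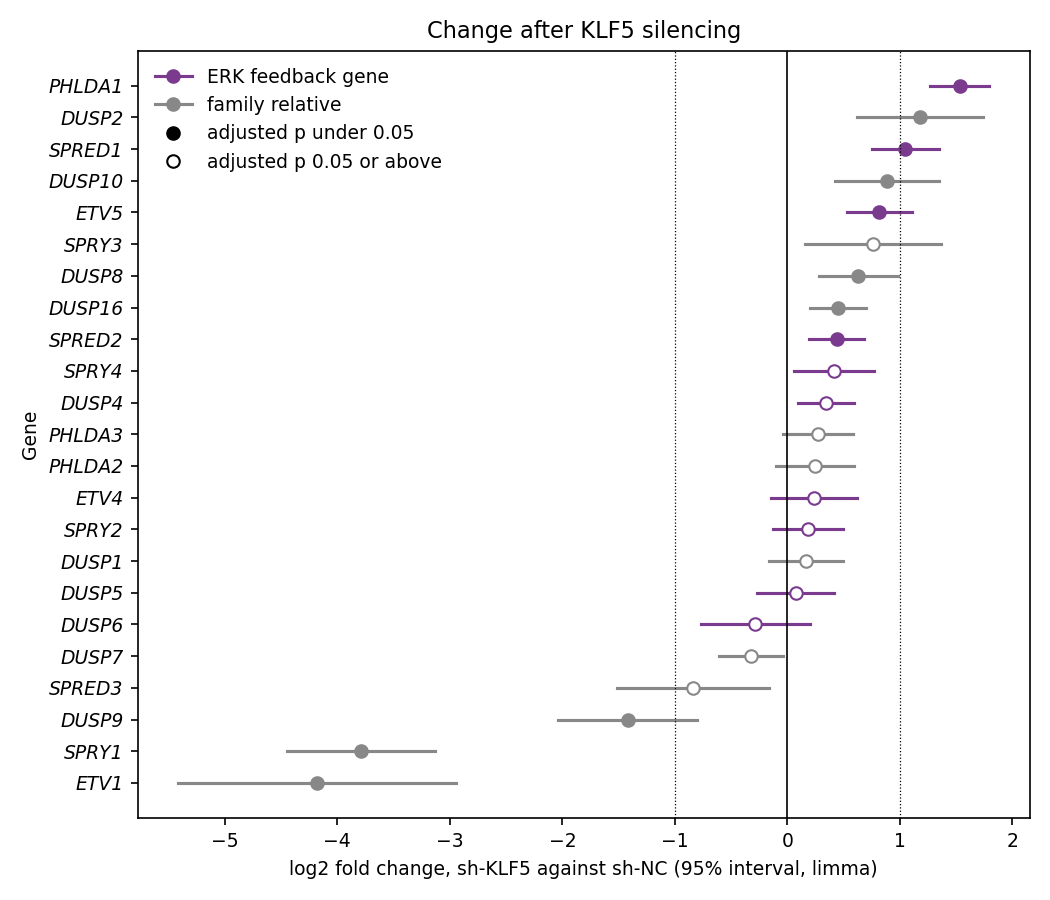
Log2 fold change of sh-KLF5 against sh-NC with its 95% interval (limma, x axis) for the 10 feedback genes and 13 relatives from the same families (y axis), where filled points have an adjusted p under 0.05 and dotted lines mark a log2 fold change of 1 in either direction. PHLDA1 and SPRED1 are the feedback genes beyond a dotted line, and SPRY1 and ETV1 lie furthest to the left, although the fitted value of ETV1 depends on the pseudocount because its reads in sh-KLF5 were 3, 0 and 1.

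The relatives of these genes moved in both directions. Of 13 relatives tested, 4 had an adjusted p under 0.05 and were higher and 3 were lower (limma), with a median log2 fold change of 0.25. Of all genes tested, 6.04% were higher and 6.85% lower by this rule. SPRY1, the third sprouty gene with clear expression, fell from 255, 186 and 216 normalized counts in sh-NC to 20.4, 19.4 and 8.02 in sh-KLF5 (log2 fold change -3.79, adjusted p = 5.17e-07). Each control library of SPRY1 was far above every sh-KLF5 library, which set it apart from SPRY2 and SPRY4, whose libraries overlapped. ETV1, the third PEA3 factor, fell from 41.9, 34.5 and 30.8 normalized counts to 3.06, 0 and 1.003, at the limit of detection (limma, adjusted p = 0.000113). DUSP9, an ERK-directed phosphatase, fell from a mean of 62.4 to 22.9 normalized counts (log2 fold change -1.42, adjusted p = 0.00314). The genes that rose were DUSP2 (log2 fold change 1.18, adjusted p = 0.00658), DUSP10 (53.1 to 98.7, adjusted p = 0.0116), DUSP8 (155 to 240.0, adjusted p = 0.0183) and DUSP16 (758 to 1038, adjusted p = 0.0176), and DUSP8, DUSP10 and DUSP16 are known mainly for acting on the stress kinases JNK and p38. DUSP1, the immediate-early phosphatase, went from 636 to 715 (log2 fold change 0.17, adjusted p = 0.548). By adjusted p (limma), 1 of 13 relatives was higher without sh-NC library 2 and 2 of 13 without sh-NC library 3. Among all genes, 518 of 16247 and 641 of 16402 tested were higher in these 2 fits, against 955 with all libraries.

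Summed per kilobase within a family, the libraries of the groups overlapped for the sprouty genes and the ERK-directed phosphatases and lay apart for the SPRED and PEA3 genes. The sprouty sum was 222 ± 29.4 per kilobase in the controls against 204 ± 30.1 after silencing (SD, n = 3), 0.920 times the control with overlapping libraries. Within it, SPRY1 made up 24.1 to 25.4% of the sum in sh-NC and 1.19 to 2.29% in sh-KLF5, and SPRY2 went from 55.4 to 55.8% up to 64.8 to 71.1%. The SPRED sum was 385 ± 14.4 and 651 ± 101 per kilobase, 1.69 times the control, and the PEA3 sum was 256 ± 13.4 and 407 ± 74.9, 1.59 times the control, both without overlap. The sum of DUSP4, DUSP5, DUSP6, DUSP7 and DUSP9 was 313.8 ± 14.7 and 313.7 ± 12.7 per kilobase, and the share of DUSP4 in it went from 36.8 to 40.3% in sh-NC up to 47.2 to 50.4% in sh-KLF5. The sum of DUSP1, DUSP2, DUSP8, DUSP10 and DUSP16 was 522 ± 59.4 and 671 ± 74.0, 1.29 times the control, without overlap. No test was run on these sums.

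**Figure D3:**
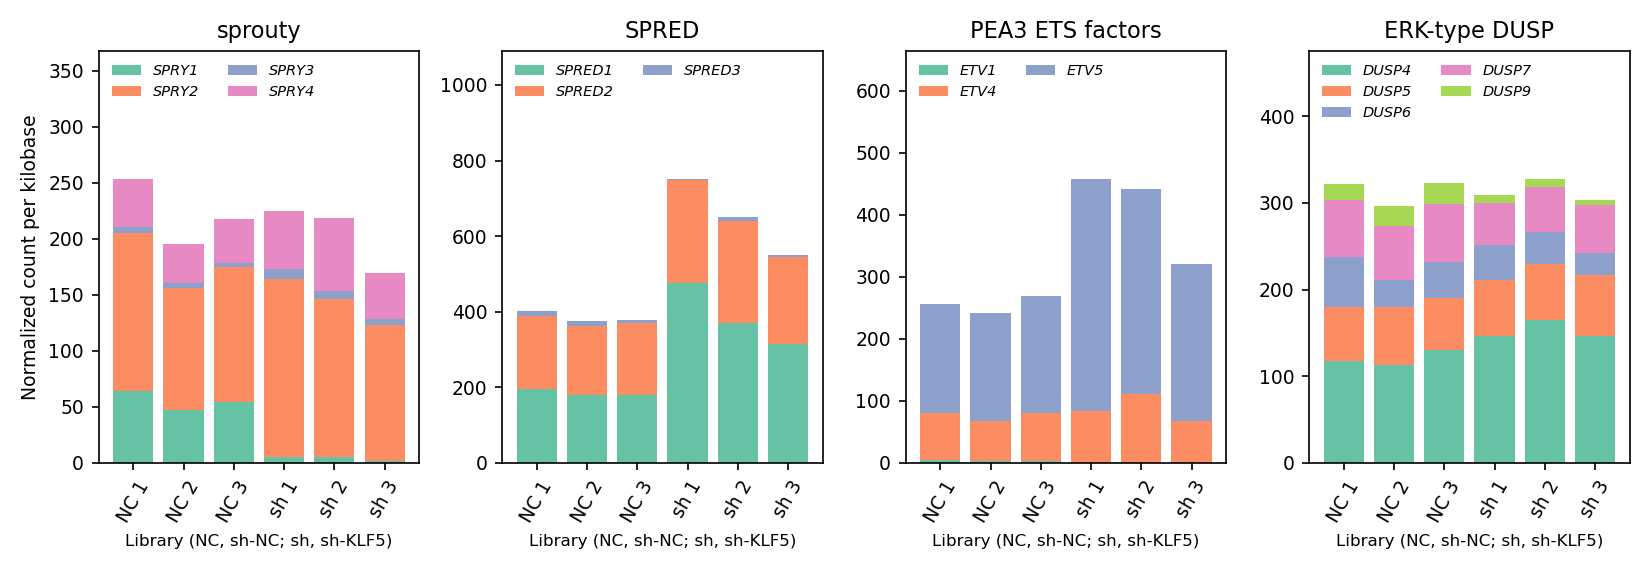
Stacked bars of normalized counts per kilobase of exon in each library (NC, sh-NC; sh, sh-KLF5) for the sprouty, SPRED, PEA3 and ERK-directed DUSP families, with 1 colour per gene and bars starting at 0. The sprouty bars keep a like height while the SPRY1 segment shrinks to 1.19 to 2.29% in sh-KLF5, and the SPRED bars are 1.69 times as high in the mean in sh-KLF5, mostly through the SPRED1 segment.

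Whether relatives differed in their change was measured within each library, as the log2 ratio of 2 genes. SPRED1 over SPRED2 was 0.69, 0.64 and 0.59 in sh-NC and 1.49, 1.13 and 1.12 in sh-KLF5, a difference of 0.61 (SE 0.12) without overlap. ETV4 over ETV5 was -1.89, -2.11 and -1.96 in sh-NC and -2.85, -2.24 and -2.61 in sh-KLF5, a difference of -0.58 (SE 0.19), also without overlap. SPRY2 over SPRY4 differed by -0.23 (SE 0.15), where the groups only just lay apart (0.504 in sh-NC library 3 against 0.501 in sh-KLF5 library 1) and the difference was -0.080 without sh-KLF5 library 2. For each of these ratios the exact two-sided permutation test gave p = 0.1, the smallest value that 3 against 3 libraries allow, and 0.2 after Benjamini-Hochberg adjustment over the 6 ratios computed. DUSP4 over DUSP6 differed by 0.63 (SE 0.32), DUSP4 over DUSP5 by 0.27 (SE 0.14) and DUSP5 over DUSP6 by 0.36 (SE 0.39), all with overlapping libraries. A difference in response between relatives was therefore not established by test for any pair at this number of libraries.

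The spread inside a group had a common direction for many of the 10 genes. Within sh-NC, library 2 was the lowest library for 9 of the 10 genes, beside 33.6% of all genes tested. Within sh-KLF5, library 3 was the lowest for 8 of the 10, beside 30.04% of all genes, and library 1 was the highest for 6 of the 10, beside 40.5%. When the group means were subtracted, the 45 pairs among the 10 genes had Pearson correlations from -0.82 to 0.98 over the 6 libraries (median 0.62), and 34 of them were above 0. The 9 pairs with DUSP5 ran from -0.82 to -0.51, and DUSP4 ran from -0.14 with SPRED1 to 0.78 with ETV4 among its other pairs. The closest pairs were SPRED1 with PHLDA1 (0.98), SPRY4 with ETV4 (0.97) and DUSP6 with SPRY2 (0.97). These points share libraries and size factors, and the 6 deviations hold only 4 independent values per gene, so that the correlations are descriptive. They were not computed for pairs of other genes, so whether the median of 0.62 is unusual is not known.

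**Figure D4:**
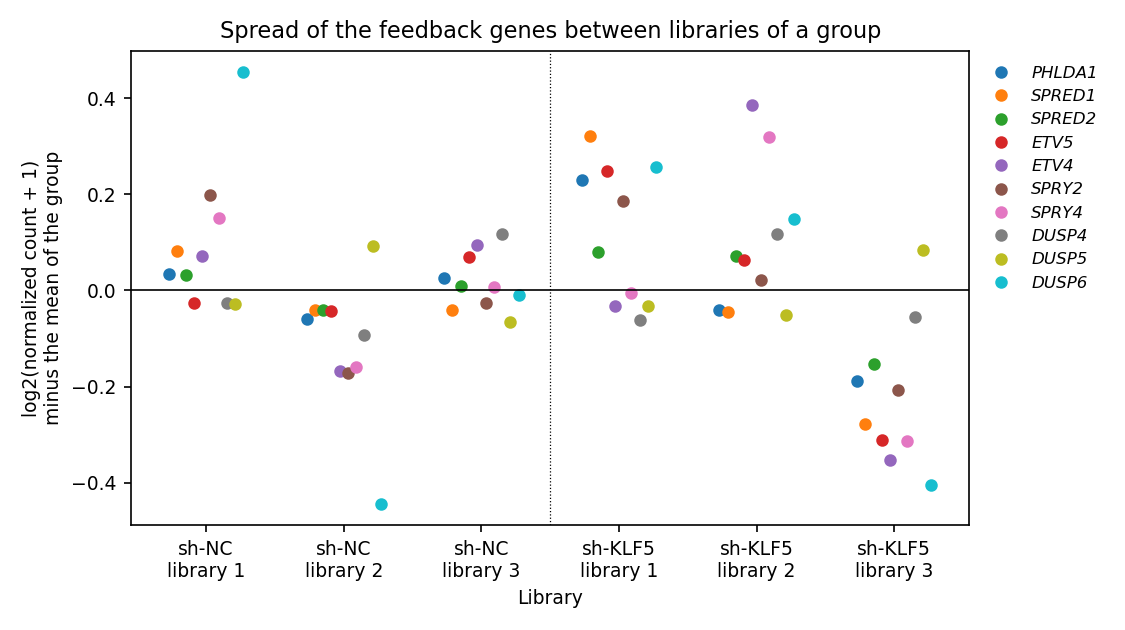
Deviation of each feedback gene from the mean of its group on the log2(normalized count + 1) scale (y axis) in each library (x axis), with 1 colour per gene and a dotted line between the groups. In sh-NC library 2 and in sh-KLF5 library 3 most points lie below 0, with 9 and 8 of the 10 genes at their lowest value within the group, and DUSP5 lies above 0 in both.

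KLF5 binds GC-rich elements of the Sp and KLF type, and PEA3 factors bind the ETS core, so the sequence before the start of the feedback genes was searched for both, on either strand, as a description and without binding data. RefSeq windows of 250 bases before the start (GRCh38.p14) were at hand for 6 of the 10 genes, DUSP6, SPRY2, SPRY4, SPRED1, SPRED2 and PHLDA1. A KLF-type match, CCNCNCCC, was present in 4 of the 6 (in any window of the gene, SPRY2 having 3 and SPRED2 having 2) and in 53.4% of 35116 windows of the same length, and an ETS core, CCGGAA, in 2 of the 6 and in 14.5% of all windows. The ETS core was searched only in this longer form, and GGAA alone was not searched. Neither the AP-1 letters TGANTCA (6.57% of all windows) nor the CRE letters TGACGTCA (1.65%) were found in any of the 6. The part of the first SPRED2 window that lies outside annotated exons and the first SPRY2 window are printed, from a gene that rose and one that did not pass the test, with the stretches of PHLDA1 that hold its matches. The other windows are not printed, and those of SPRY2 held 3 further KLF-type matches. Capitals mark the KLF-type and ETS matches, and all are on the minus strand and written 5′ to 3′. The RefSeq start of PHLDA1 matches a GENCODE transcript start, but the annotated gene begins further upstream, so that its stretches are inside annotated exons.
SPRED2, chr2:65432638-65432849, 4 KLF-type matches beginning 228, 113, 96 and 90 bases before the start, the last 2 overlapping: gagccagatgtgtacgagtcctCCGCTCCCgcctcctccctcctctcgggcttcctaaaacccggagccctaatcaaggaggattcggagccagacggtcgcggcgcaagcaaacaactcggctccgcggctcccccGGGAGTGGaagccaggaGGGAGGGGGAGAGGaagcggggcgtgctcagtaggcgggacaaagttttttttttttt
SPRY2, chr13:80341127-80341376, 3 KLF-type matches beginning 110, 51 and 42 bases before the start and an ETS core at 142: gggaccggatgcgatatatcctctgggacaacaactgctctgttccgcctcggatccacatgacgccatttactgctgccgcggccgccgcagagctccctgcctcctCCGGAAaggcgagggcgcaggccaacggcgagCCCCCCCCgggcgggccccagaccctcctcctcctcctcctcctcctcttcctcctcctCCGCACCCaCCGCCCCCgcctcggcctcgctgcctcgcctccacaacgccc
PHLDA1, chr12:76031997-76032026, the KLF-type match at 248: ctCCGCGCCCccgtcctcactttctgaggc
PHLDA1, chr12:76031848-76031877, the ETS core read on the other strand at 89: gaggagaggagtTTCCGGggctcgggtccg
SPRED1, which rose, had neither of these exact matches in its window, and neither had DUSP6. All 250 bases of both windows lie inside annotated exons of the gene, as do 170 bases of the SPRY4 window.

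A separate list held 23 other genes taken as ERK output, without a measure of ERK activity in these cells. Of the list, 22 were in the table and 21 were tested. Of these, 6 rose and 2 fell at an adjusted p under 0.05 (limma), beside 6.04% and 6.85% of all genes tested, with a median log2 fold change of 0.31. LIF, a secreted cytokine, had 328, 287 and 292 normalized counts in sh-NC and 1149.7, 1178 and 948 in sh-KLF5 (log2 fold change 1.85, adjusted p = 1.20e-07). EGR1, an immediate-early zinc finger factor, had 565, 454 and 515 in sh-NC and 1112, 1351 and 1643 in sh-KLF5 (log2 fold change 1.41, adjusted p = 5.99e-06). For both genes every sh-KLF5 library was well above every control. FOSL1, an AP-1 subunit, rose by 1.09 on the log2 scale (adjusted p = 0.000314), IER3 by 0.94 (adjusted p = 0.00194), CCND1, which encodes cyclin D1, by 0.80 (adjusted p = 0.000129) and MAP2K3, a kinase of the p38 branch, by 0.56 (adjusted p = 0.00683). PROS1, the coagulation cofactor protein S, fell by 1.06 on the log2 scale (adjusted p = 0.000227) and the transporter gene SLCO4A1 fell by 0.65 (adjusted p = 0.00158). The other 13 tested genes of the list did not pass. Without sh-KLF5 library 3, 9 of the list were higher by adjusted p (limma), beside 959 of all 16349 genes tested in that fit.

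**Figure D5:**
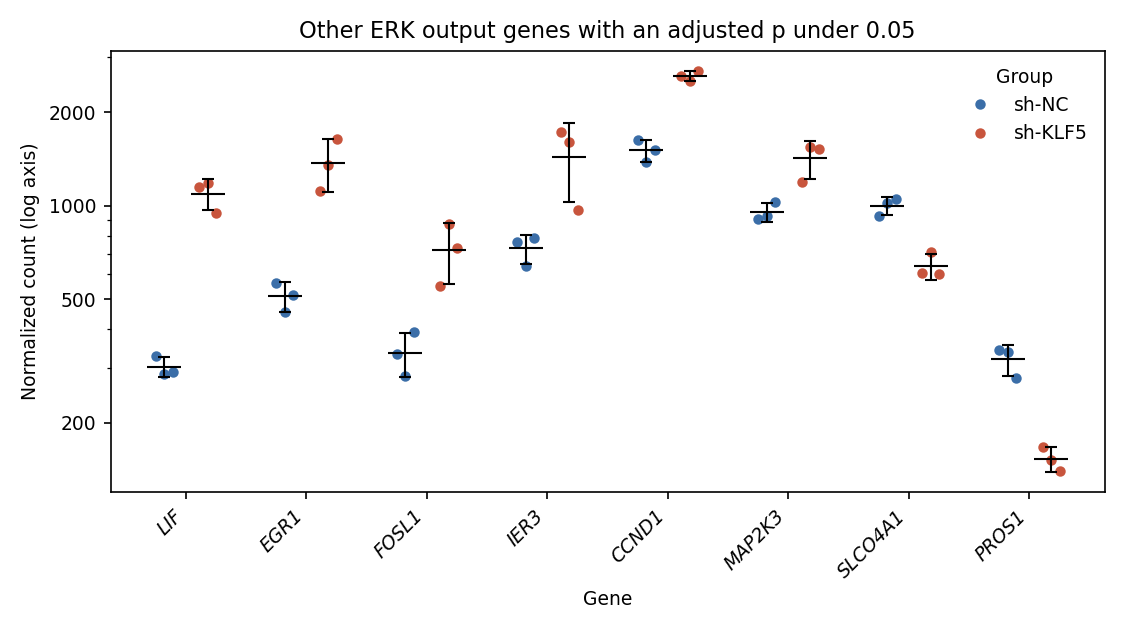
Normalized counts (log axis) in each library of the 8 other ERK output genes with an adjusted p under 0.05, where points are libraries, horizontal bars the group means and whiskers the SD. The groups do not overlap for any of the 8, with LIF and EGR1 the widest apart among those that rose and PROS1 among those that fell.

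The kinases and adaptors of the cascade itself were taken from a list of 35 genes, of which 34 were tested. At an adjusted p under 0.05 (limma), 3 rose and 2 fell, a share near the 12.9% of all genes, with a median log2 fold change of 0.069. MAPK3, which encodes ERK1, had mean normalized counts of 615 in the controls and 682 after silencing (log2 fold change 0.14, adjusted p = 0.623). LAMTOR3, a scaffold that holds MEK and ERK on late endosomes, rose from 314 to 471 normalized counts (adjusted p = 0.0207), and the RAS activators RASGRP1 (25.2 to 53.0, adjusted p = 0.0386) and RASGRP3 (2.67 to 16.1, adjusted p = 0.0202) rose from low levels. The adaptor gene GAB2 fell from 84.1 to 50.2 (adjusted p = 0.0402), and RPS6KA6, a kinase of the RSK family, fell from 19.3 to 0.323, near the limit of detection (adjusted p = 0.000519). With all libraries the count of cascade genes higher was 3 by edgeR, 3 by DESeq2 and 6 at an unadjusted p under 0.05. By that last rule 12.8% of all genes were higher. Without sh-NC library 2 the count was 0 by adjusted p (limma), beside 518 of all 16247 genes tested in that fit. Without sh-NC library 3 it was 1, beside 641 of 16402.

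Receptors and ligands that feed into the cascade moved both ways. Of 31 listed, 26 were tested, and the median log2 fold change was 0.10. At an adjusted p under 0.05 (limma), 5 rose and 6 fell, beside 6.04% and 6.85% of all genes tested. EGFR had 3546, 4057 and 3691 normalized counts in sh-NC and 5099, 5262 and 5167 in sh-KLF5, without overlap (log2 fold change 0.46, adjusted p = 0.00952), and ERBB2 went from 1993 to 1593 (log2 fold change -0.33, adjusted p = 0.124). FGF2, the basic fibroblast growth factor, rose from 3225 to 6296 normalized counts (adjusted p = 0.000537), and GAS6, the ligand of AXL, from 549 to 1217 (adjusted p = 2.74e-05). PDGFA (582 to 1115, adjusted p = 8.05e-05) and FGFR2 (17.4 to 61.3, adjusted p = 0.000877) rose as well. HGF, the ligand of MET, fell from 752, 436 and 453 normalized counts in sh-NC to 31.6, 13.6 and 13.0 in sh-KLF5 (log2 fold change -4.82, adjusted p = 3.88e-08). ERBB3 fell from 209 to 77.6 (adjusted p = 0.000117), the EGFR ligand AREG from 939 to 499 (adjusted p = 0.000151), FGF18 from 53.2 to 4.36 (adjusted p = 0.000188), and PDGFRA from 73.5 to 0.668, near the limit of detection (adjusted p = 2.48e-06). DDR2, a collagen receptor, had a log2 fold change of -3.90 (adjusted p = 9.40e-10).

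Fibroblast markers moved beside these genes. Of 6 tested, 4 (DCN, COL1A2, COL3A1 and THY1) were lower in sh-KLF5 by limma, beside 6.85% of all genes tested, and LUM and COL1A1 did not pass. The summed level of the 7 genes ranged from 1123 to 1618 normalized counts in sh-NC and from 401 to 753 in sh-KLF5. COL1A2 and THY1 were at 0 to 3.01 normalized counts in sh-KLF5. The leukocyte sum, carried almost wholly by CD14, ranged from 151 to 225 in sh-NC and from 191 to 379 in sh-KLF5, and the endothelial sum from 73.6 to 88.1 and from 46.1 to 84.4, with TEK higher in sh-KLF5 (3.17 to 13.3, adjusted p = 0.0442). The part of these markers, and of the lower keratins, in the changes of the feedback genes was not tested.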

How the data were processed

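RNA-seq of 3 sh-NC and 3 sh-KLF5 libraries of SKOV3 cells was used, grouped by the sample titles. Per the labels, the submitters' processing notes name HISAT2 2.0.5, featureCounts 1.5.0-p3, DESeq2 1.20.0 and the build hg38. The authors deposited 1 table with a normalized signal per gene and library, which is a read count divided by 1 size factor. The same table holds the authors' log2 fold changes and p-values, made by them before deposit, which were not used.

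Each library was divided by its smallest value above 0, which gave whole reads for 100% of values (tolerance 1e-06). A count of 0 allows up to 3 reads, 0.171 to 0.189 CPM, and covers counting error only. Genes were kept by filterByExpr (minimum count 10, 15803 genes), and the groups were compared with limma 3.58.1 (trend, robust) in R 4.3.3 on log2(normalized count + 1), which understates the change of low genes, with Benjamini-Hochberg adjustment over all genes. A gene was called at an adjusted p under 0.05, with and without a log2 fold change beyond 1. Paralog ratios were compared by an exact two-sided permutation test. The script was tested on simulated data. Alternatives were edgeR 4.0.16 and DESeq2 1.42.0 on the recovered reads, other pseudocounts (0.1 and 5), scalings and filters, unadjusted p, a replicate block, and leaving out each library.

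GENCODE 29 gave coordinates for 99.9% of genes, and sequences are from RefSeq (GRCh38.p14). Genes named are the 10 feedback genes, KLF5, listed genes past the adjusted p (at most 10 per list, by smallest p), a few set by name, and genes that overlap or copy a member. Some genes covered by this are not reported here. The members and lists were chosen with earlier results of these data known. Plots used matplotlib 3.10.9 (Python 3.11.15).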

Additional observations from a re-analysis of the deposited data

How the results depend on the processing

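No feedback gene changed direction under any setting tried, and PHLDA1, SPRED1 and ETV5 kept an adjusted p under 0.05 in each. The median log2 fold change of all genes lay between -0.020 and 0.0086 over the settings with all libraries. Genes lower with a log2 fold change below -1 numbered 533, against 811 without any filter and 231 where every library had to hold at least 10 reads, settings that tested more and fewer genes. With unadjusted p, 2024 genes were higher and 2110 lower in place of 955 and 1083. Without each library in turn, genes with an adjusted p under 0.05 numbered 518 to 1272 higher and 699 to 1514 lower, with the lowest counts without sh-NC library 2 (617 higher without sh-NC library 1), and the cause was not tested. Genes past both thresholds numbered 253 to 337 higher and 461 to 620 lower. Of the 10 feedback genes, 3 to 5 were higher by adjusted p and 1 to 2 also by fold, where 1 was found without sh-KLF5 library 1, and 0 were lower each time. The KLF5 log2 fold change ran from -1.62 to -1.48.

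Same-numbered libraries of the groups deviated together only weakly (r 0.059, 0.033 and 0.050), so the numbers were not taken as pairs. A fit with the replicate block gave 1292 genes higher and 1383 lower by adjusted p, and 4 feedback genes higher, as without it. Depth limited RPS6KA6, ETV1 and PDGFRA in sh-KLF5, which were at 3 reads or fewer in each library.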
